A study of Caenorhabditis elegans with 4 samples.

Results

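The genes described here encode the contractile apparatus of Caenorhabditis elegans muscle and the structures that anchor it: 38 genes for myosins, actins and their regulators, giant filament proteins, integrin attachment proteins, calcium channels and pumps, and the muscle transcription factor hlh-1. They were taken by gene name, without troponin genes, and 32 of the 38 had at least 1 probe that the array annotation assigns to that gene alone. The other 6, the myosin light chain genes mlc-1, mlc-2 and mlc-3, the tropomyosin gene lev-11, the vinculin gene deb-1 and unc-95, were not analysed here. Each of 4 spotted arrays carried mRNA from 1 prep of glp-4 adults in channel 2 and the same wild-type mixed reference RNA in channel 1. The labels name neither the glp-4 allele, the temperature and age of the adults nor what the reference was mixed from, and no further agent or tissue dissection is given. As background, the product of glp-4 is a tRNA synthetase for valine, and temperature-sensitive mutants grown warm reach adulthood with very few germ cells.

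Body wall muscle of the worm is striated obliquely. Thick filaments of myosin and paramyosin are held at M-lines, thin filaments of actin at dense bodies, and both are fixed through integrin to the basement membrane, from which epidermal fibrous organelles carry the force to the cuticle. The pharynx is a separate muscular organ with its own myosin heavy chains.

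Values are log2 ratios as deposited, and a positive value means that the transcript took a larger share of the glp-4 RNA than of the reference RNA. This direction is likely rather than settled. It rests on how the labels describe the arrays and order the channels, without naming a dye. If the channels were divided the other way, all signs below would be turned. A gene was called higher or lower when its mean over the 4 preps differed from 0 at a Benjamini-Hochberg adjusted p under 0.05 in limma, adjusted over all 19981 tested features. Errors after ± are SDs over 4 preps, which nothing in the labels describes as separate cultures. The p-values therefore cover prep-to-prep spread, possibly technical, and leave out any spread between wild-type samples. Because the labels give no tissue dissection, whole worms were presumably used. A larger share of muscle cells and more muscle RNA per cell cannot then be told apart. Nor can the glp-4 genotype and the adult stage, since no wild-type adults were set against the reference.

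In glp-4 adults, 15 of the 32 measured sarcomere and attachment genes (46.9%) were higher and 0 were lower, beside 17% of all tested features called higher and 20.9% called lower. At an unadjusted p under 0.05 in limma the counts were 17 and 0, beside 4642 and 5136 of the 19981 features. The median of the 32 mean log2 ratios was 0.58, against 0.00 over all features, and 27 of the 32 means lay above 0. Chemoreceptor and F-box genes, 1329 taken by name and presumed to be weakly expressed, had array medians between 0.04 and 0.55 with a mean of 0.30. Small positive ratios of muscle genes have to be read beside that level, though whether it applies to them was not tested. The signal strength of the chemoreceptor and F-box genes on these arrays is unknown. With each array centred on those genes, 7 of the 32 were higher and 1 (unc-98) lower, beside 1684 higher and 6032 lower of the 19981 features. In that setting unc-54, unc-15, act-1, act-2, act-3, unc-96, unc-112 and pat-12 missed the threshold. Without prep 2 the number of higher genes was 9, beside 2406 of 19471 features. Without prep 3 it was 8, beside 2687 of 19255 features. The highest means belonged to dim-1, clik-1 and cpn-3 and the lowest to unc-98, unc-60 and sca-1. Of the 32 genes, 16 were above 0 on every array, 1 (unc-60) was below 0 on every array and 15 had both signs.

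**Figure D1:**
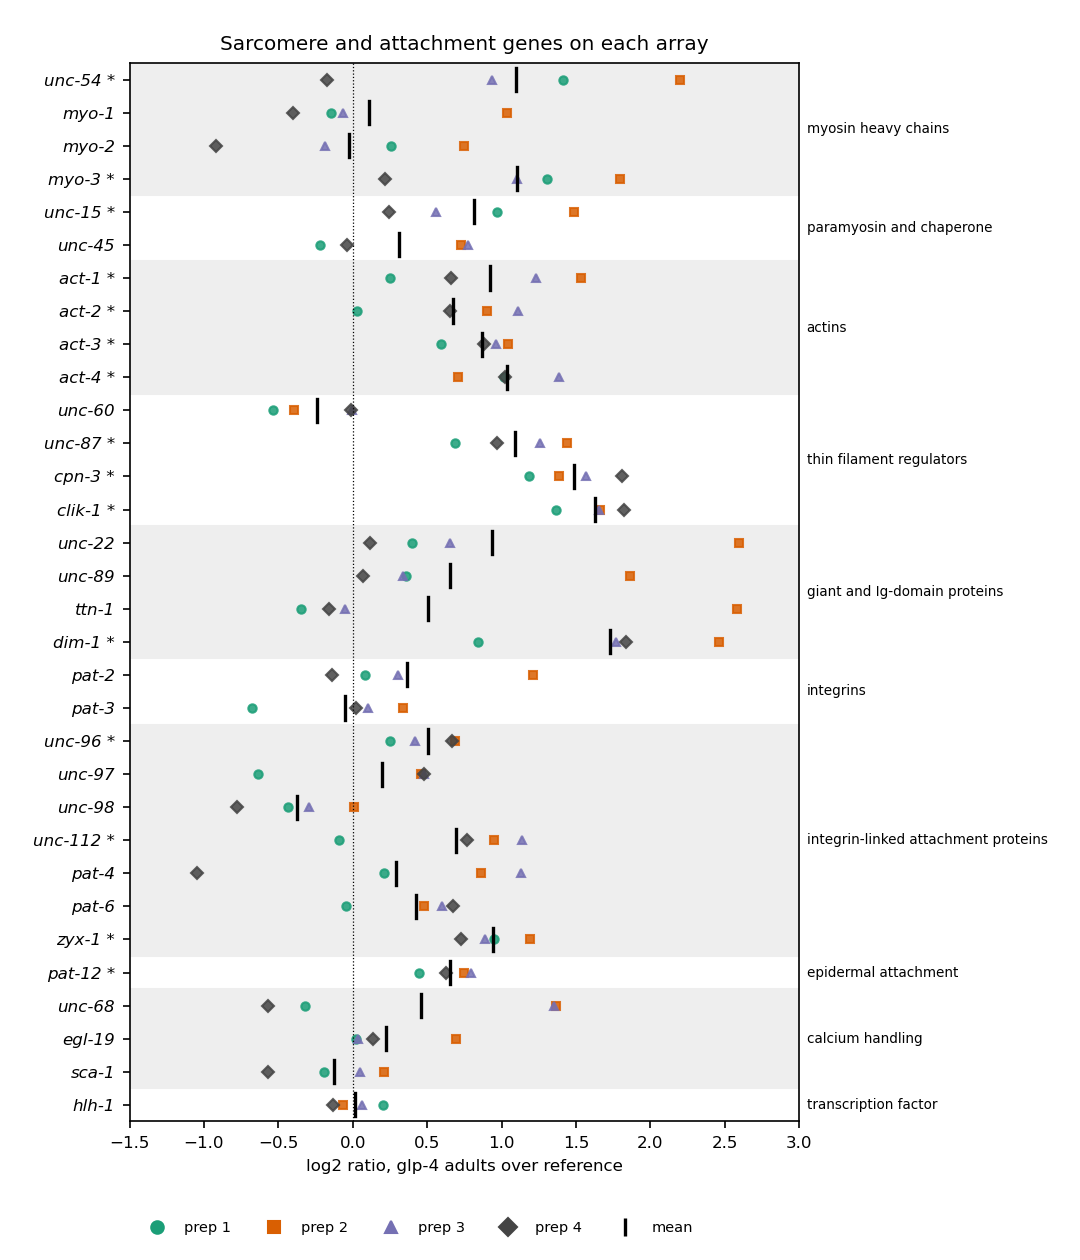
Log2 ratio of glp-4 adults over reference (x axis) for each of the 32 measured genes (y axis), grouped by role. Symbols are the 4 preps, black bars are means and asterisks mark the 15 genes called higher in limma. The thin filament genes clik-1 and cpn-3 lie above 1 on every array, whereas unc-22, unc-89 and ttn-1 are far to the right on prep 2 only.

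Of the 4 myosin heavy chain genes, the body wall pair unc-54 and myo-3 was called higher, and the pharyngeal pair myo-1 and myo-2 was not. The mean of the pharyngeal pair lay below that of the body wall pair on every array, a difference that 4 arrays are too few to call. The major body wall heavy chain gene unc-54 (F11C3.3) had log2 ratios of 1.41, 2.20, 0.93 and -0.17 on preps 1 to 4. It was high on prep 2 and fell on the negative side only on prep 4. Its mean was 1.09 ± 0.99 (2.13-fold, adjusted p = 0.0461 in limma). The call was lost when prep 2 (adjusted p = 0.135), prep 1 (0.13) or prep 3 (0.0913) was left out, and its alternatives spanned 0.0109 to 0.135. The other body wall heavy chain gene myo-3 (K12F2.1), whose product lies at the middle of the thick filament, had 1.31, 1.80, 1.11 and 0.21. All of these were above 0, with a mean of 1.11 ± 0.66 (2.15-fold, adjusted p = 0.0146), and myo-3 remained higher in all 14 alternative analyses. The difference of unc-54 minus myo-3 was -0.01 ± 0.34, smaller than its spread.

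The pharyngeal heavy chain genes did not pass the threshold. For myo-1 (R06C7.10) the values were -0.14, 1.04, -0.07 and -0.40, with a mean of 0.11 ± 0.64 (95% interval from -0.48 to 0.70). For myo-2 (T18D3.4) they were 0.26, 0.75, -0.19 and -0.92, with a mean of -0.03 ± 0.71 (95% interval from -0.64 to 0.61). Both were above 0.7 on prep 2 and lowest on prep 4, as the body wall chains were. Subtracting the mean of the body wall pair from that of the pharyngeal pair on the same array gave -1.30, -1.11, -1.15 and -0.68. The pharyngeal pair was therefore below the body wall pair on 4 of 4 arrays, by 1.06 ± 0.27 on the log2 scale (2.08-fold). In an exact two-sided sign permutation 2 of 16 sign patterns were as extreme, the smallest p that 4 arrays allow and one that cannot pass 0.05. Centring does not enter this difference, since it is taken within an array, although it shows unequal ratios and not that either pair was unchanged.

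**Figure D2:**
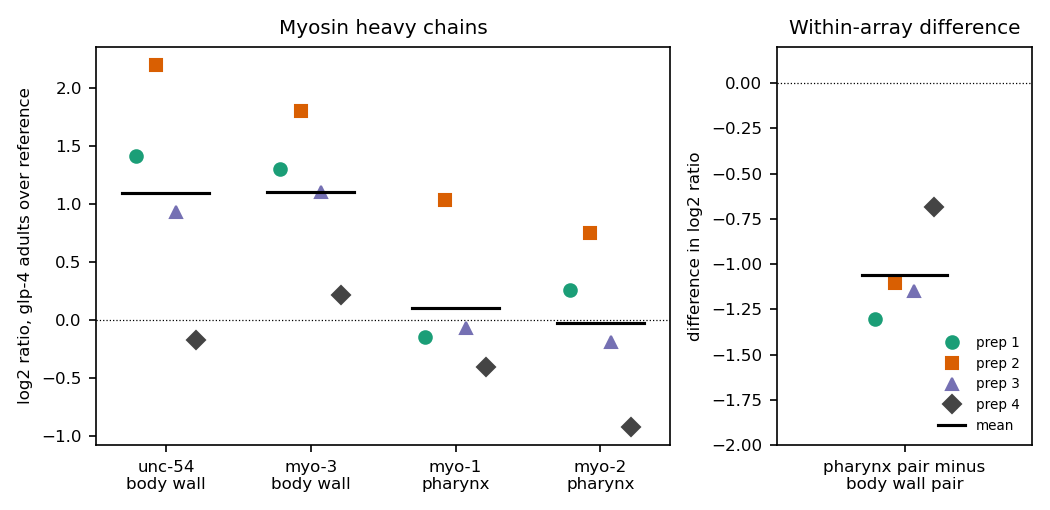
Left, log2 ratios (y axis) of the 4 myosin heavy chain genes on each prep. Right, mean of the pharyngeal pair minus mean of the body wall pair on each array; bars are means. The genes shift together between preps, yet all 4 within-array differences lie between -1.30 and -0.68.

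Of the other thick filament genes, unc-15 was called higher and unc-45 was not. Paramyosin, the core protein of the thick filament encoded by unc-15 (F07A5.7), had values of 0.97, 1.49, 0.56 and 0.24. As with unc-54, myo-3 and myo-2, prep 2 was highest, followed by preps 1, 3 and 4. Its mean of 0.81 ± 0.54 was called higher (1.76-fold, adjusted p = 0.0275), but not without prep 1 (0.0782), prep 2 (0.0759) or prep 3 (0.0502), over a range of 0.0170 to 0.0965. The difference of unc-15 minus unc-54 was -0.28 ± 0.48, smaller than its spread. The myosin chaperone gene unc-45 (F30H5.1) had -0.22, 0.73, 0.77 and -0.04, and its mean of 0.31 ± 0.51 did not pass.

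All 4 muscle actin genes were higher as deposited, and act-4 alone of them also with the arrays centred on the chemoreceptor and F-box genes, where act-3 reached an adjusted p of 0.0533, act-1 of 0.0763 and act-2 of 0.259 in limma. Their mean log2 ratios lay between 0.67 (act-2) and 1.03 (act-4), and every one of their 16 array values, probes averaged, was above 0. The most even were act-4 (M03F4.2), with 1.02, 0.70, 1.39 and 1.03 (mean 1.03 ± 0.28, 2.05-fold, adjusted p = 0.00328), and act-3 (T04C12.4), with 0.59, 1.04, 0.96 and 0.88 (mean 0.87 ± 0.20, adjusted p = 0.00471). By contrast act-1 (T04C12.6) ranged from 0.25 on prep 1 to 1.54 on prep 2 (mean 0.92 ± 0.57), and act-2 (T04C12.5) from 0.03 on prep 1 to 1.11 on prep 3 (mean 0.67 ± 0.47). The calls of these 2 genes had adjusted p-values of 0.0205 and 0.0392. Neither held without prep 2 (0.0633 and 0.115) or prep 3 (0.0707 and 0.128), and act-2 also lost its call without prep 4 (0.101). Over all alternatives the adjusted p ranged from 0.0130 to 0.0763 for act-1 and from 0.0155 to 0.259 for act-2. In the RefSeq table of assembly WBcel235, act-1, act-2 and act-3 are 3 protein-coding genes in a row. Worm actin genes are nearly identical in coding sequence. A spot can therefore report more than 1 of them, and their agreement cannot be taken as that of independent measurements. Which of them each spot reports was not tested. Whether act-5, an intestinal actin gene at 2.52 ± 0.38, adds signal to the spots of the muscle actins was not tested.

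Of the measured genes for proteins that bind actin filaments, clik-1, cpn-3 and unc-87 were higher and unc-60 was not. The calponin-like gene clik-1 (T25F10.6) had 1.37, 1.66, 1.65 and 1.82, a mean of 1.63 ± 0.19 (3.09-fold, adjusted p = 0.000420). The calponin-family gene cpn-3 (F28H1.2) had 1.19, 1.39, 1.57 and 1.81, a mean of 1.49 ± 0.27 (2.81-fold, adjusted p = 0.000767). These were among the 4 highest of the 32 genes on preps 1, 3 and 4, and ranked 7 and 11 on prep 2. Of the same family, unc-87 (F08B6.4), which protects actin filaments in the sarcomere, had 0.69, 1.44, 1.26 and 0.97 (mean 1.09 ± 0.33, 2.13-fold, adjusted p = 0.00333). These 3 genes remained higher in every alternative. The cofilin gene unc-60 (C38C3.5), which makes a muscle and a non-muscle isoform that sever actin filaments, stood apart with -0.54, -0.40, -0.0029 and -0.01. Its mean of -0.24 ± 0.27 did not pass (adjusted p = 0.284 in limma), and which isoform its probe reports is not known here.

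Among the immunoglobulin-domain genes, ttn-1 and unc-22 had the widest spreads over preps of the 32 genes, and unc-22, unc-89 and ttn-1 were high on prep 2 alone. The twitchin gene unc-22 (ZK617.1), which encodes a giant kinase of the thick filament, had 0.40, 2.59, 0.65 and 0.11. The obscurin gene unc-89 (C09D1.1), whose product sits at the M-line, had 0.36, 1.86, 0.34 and 0.07. The titin-like gene ttn-1 (W06H8.8) had -0.35, 2.58, -0.05 and -0.16. On prep 2 these genes stood 1.5 to 2.64 above their next highest array, and on the other preps they lay between -0.35 and 0.65. Their means of 0.94 ± 1.12, 0.66 ± 0.81 and 0.50 ± 1.39 did not pass (adjusted p = 0.0988, 0.124 and 0.426). Without prep 2 the means were 0.39, 0.25 and -0.19. The 3 probes of ttn-1 gave 2.44, 2.81 and 2.49 on prep 2 and values between -0.42 and 0.07 elsewhere, so the value of prep 2 does not come from a single spot. The kettin-like gene ketn-1, another protein of repeated immunoglobulin domains, was picked for its values after they were seen: 0.11, 2.39, -0.00079 and -0.22.

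Of this group, dim-1 (C18A11.7), a smaller immunoglobulin-domain protein at the muscle cell membrane, passed. Its values of 0.84, 2.46, 1.77 and 1.84 ranked 8, 3, 1 and 1 among the 32 genes of their arrays. The mean of 1.73 ± 0.67 was the highest of the 32 (3.31-fold, adjusted p = 0.00247). The difference from the next gene, clik-1, was 0.10 ± 0.55, within its spread. For dim-1 the lowest array was prep 1, and prep 2 lay 0.62 above the next.

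**Figure D3:**
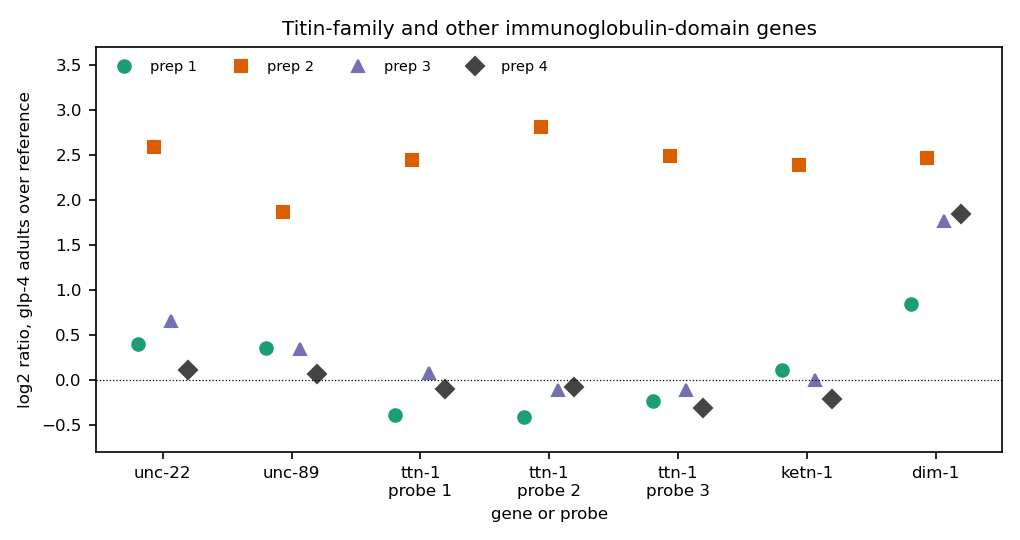
Log2 ratios (y axis) of immunoglobulin-domain genes on each prep, with the 3 probes of ttn-1 shown singly and ketn-1, which is no member, added after its values were seen. On prep 2 every gene or probe lies at or above 1.86. On the other preps the genes other than dim-1 reach at most 0.65.

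Attachment genes were mixed. The integrin subunit genes did not pass: pat-2 (alpha subunit, F54F2.1) had 0.08, 1.21, 0.31 and -0.14, with a mean of 0.36 ± 0.59. For pat-3 (beta subunit, ZK1058.2) the values were -0.68, 0.34, 0.10 and 0.02, with a mean of -0.05 ± 0.44. Both were highest on prep 2. Their 95% intervals ran from -0.20 to 0.93 and from -0.53 to 0.42.

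Among the proteins that gather at integrin, 3 of 7 measured genes were higher (42.9%, beside 17% of all features), and of these zyx-1 alone kept its call in all 14 alternatives. The zyxin gene zyx-1 (F42G4.3) was the most even, with 0.95, 1.19, 0.89 and 0.73 (mean 0.94 ± 0.19, 1.92-fold, adjusted p = 0.00341). The kindlin gene unc-112 (C47E8.7), which activates integrin, had -0.09, 0.95, 1.14 and 0.77 (mean 0.69 ± 0.54, adjusted p = 0.0481). Prep 1 was the exception below 0. The M-line gene unc-96 (F13C5.6) had 0.25, 0.69, 0.42 and 0.67 (mean 0.51 ± 0.21, adjusted p = 0.0394). Without prep 2, 3 or 4 neither call held, with adjusted p-values of 0.137, 0.151 and 0.129 for unc-112 and of 0.111, 0.0826 and 0.132 for unc-96. The alternatives ranged from 0.0112 to 0.260 for unc-112 and from 0.0325 to 0.456 for unc-96.

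The integrin-linked kinase complex, which unc-112 joins, did not pass in its other members. The parvin gene pat-6 (T21D12.4) had -0.04, 0.48, 0.60 and 0.67, a mean of 0.43 ± 0.32 (adjusted p = 0.0928). It passed without prep 1, at 0.0454, over a range of 0.0454 to 0.691. The integrin-linked kinase gene pat-4 (C29F9.7) had 0.21, 0.86, 1.13 and -1.05, a mean of 0.29 ± 0.97 that was 0.73 without prep 4. The PINCH gene unc-97 (F14D12.2) had -0.63, 0.46, 0.48 and 0.48, and its mean of 0.19 ± 0.55 was 0.47 without prep 1. Prep 1 was thus the lowest array for unc-97, pat-6 and unc-112, and prep 4 for pat-4. The zinc-finger M-line gene unc-98 (F08C6.7) had -0.44, 0.01, -0.30 and -0.78. Its mean of -0.37 ± 0.33 was the lowest of the 32 (adjusted p = 0.130), and on each array it ranked between 29 and 32.

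The epidermal member, pat-12 (T17H7.4), acts in fibrous organelles and not in muscle. Its averaged values of 0.44, 0.74, 0.79 and 0.63 gave a call (mean 0.65 ± 0.16, adjusted p = 0.0133), lost without prep 3 (0.0511, range over alternatives 0.00271 to 0.212). Its 2 probes disagreed. One had a mean of 1.22 ± 0.37 and the other of 0.08 ± 0.15, so the even average covers unlike values. The probe means of act-2 (0.45 ± 0.59 and 0.90 ± 0.40), egl-19 (0.29 ± 0.37 and 0.15 ± 0.27) and unc-112 (0.78 ± 0.67 and 0.61 ± 0.47) lay closer together than those of pat-12. Probe differences within arrays were not tested. On prep 1 the act-2 probes had opposite signs, -0.42 and 0.48.

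None of the 3 calcium handling genes passed in limma, adjusted or at an unadjusted p under 0.05. For 3 genes this does not stand apart from 17% higher and 20.9% lower among all features. The ryanodine receptor gene unc-68 (K11C4.5), which releases calcium from the sarcoplasmic reticulum, had -0.32, 1.36, 1.35 and -0.57. Preps 2 and 3 were high and preps 1 and 4 below 0, for a mean of 0.46 ± 1.05. The L-type calcium channel gene egl-19 (C48A7.1) had 0.02, 0.69, 0.03 and 0.14 (mean 0.22 ± 0.32). The calcium pump gene sca-1 (K11D9.2) had -0.20, 0.21, 0.05 and -0.57 (mean -0.13 ± 0.34). The muscle transcription factor gene hlh-1 (B0304.1), the worm relative of MyoD, was close to 0 on every array, with 0.21, -0.06, 0.06 and -0.13 (mean 0.02 ± 0.15, 95% interval from -0.33 to 0.36).

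Many of the 32 genes, though not all, moved together between preps. The array medians of the 32 were 0.99 (prep 2), 0.71 (prep 3), 0.23 (prep 1) and 0.18 (prep 4), while the median of all features stayed between -0.07 and 0.08. Prep 4, where the median of the 32 was lowest, was nevertheless the highest array for clik-1, cpn-3, unc-97 and pat-6. The highest of the 4 arrays was prep 2 for 20 of the 32 genes (62.5%), against 23.5% of 19100 features measured on all arrays. The lowest was prep 1 for 17 genes and prep 4 for 14, against 23.6% and 21.6% of all features. These shares describe the arrays and were not tested, because genes of 1 array are not replicates. On prep 2 the values of all spots had an SD of 1.21, the widest of the 4 arrays, and a median of -0.05. Of the 32 genes, 30 were above 0 on prep 2 and 20 on prep 4. The median of the 32 genes on an array comes from these genes, so subtracting it lowers their SDs in part by construction. Doing so made the SD over preps smaller for 22 of them and took the median SD from 0.49 to 0.42. The exceptions include clik-1, cpn-3, act-3, act-4 and zyx-1, which were the steadier as deposited. In all, 7 genes were called in all 14 alternatives: myo-3, act-4, unc-87, cpn-3, clik-1, dim-1 and zyx-1. Not every alternative could test these calls. The missing-value filters and the use of 1 probe per gene left the ratios of these 7 genes unchanged. How many of all features were called in every alternative is not known here.

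**Figure D4:**
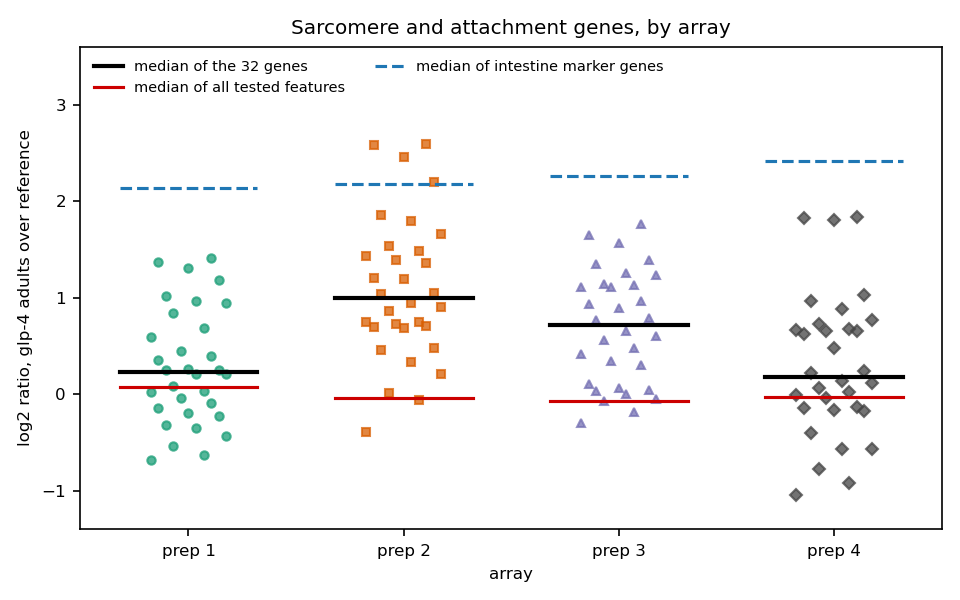
Log2 ratios (y axis) of the 32 genes on each array (x axis), spread sideways for legibility. Black bars are their medians, red bars the medians of all tested features and dashed blue bars those of 13 intestine marker genes. The muscle median moves from 0.18 to 0.99 between arrays, and that of the intestine markers from 2.14 to 2.42.

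Further lists of muscle and attachment genes were set beside these. Of 18 other dense body and M-line genes tested, 6 were higher (33.3%) and 1 lower, with a median of 0.20, beside 17% higher and 20.9% lower of all features. The perlecan gene unc-52, the basement membrane proteoglycan under muscle, led (1.38 ± 0.33), followed by the profilin gene pfn-3 (1.21 ± 0.47). The lower one was mel-26 (-0.94 ± 0.26), which encodes an adaptor for protein degradation also active in the early embryo. Of 10 troponin genes 4 were higher (40%, beside the same 17%) and 1 lower (median 0.45), with tnt-2 at 2.04 ± 0.18, unc-27 at 1.89 ± 0.26 and the pharyngeal tnc-2 at -0.57 ± 0.36.

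On the outer side of the muscle, 6 of 10 basement membrane genes were higher (60%, beside 17% of all features) and 0 lower (beside 20.9%), with a median of 1.00. One of the 6 is unc-52, already counted among the dense body and M-line genes. The nidogen gene nid-1 had 1.55, 2.89, 1.92 and 2.37 (mean 2.18 ± 0.58) and the type IV collagen gene emb-9 had 0.90, 2.43, 1.43 and 0.86 (mean 1.41 ± 0.73), both highest on prep 2. Of 8 epidermal fibrous organelle genes 5 were higher (62.5%) and 0 lower (median 0.69), led by the intermediate filament genes ifb-1 (1.75 ± 0.44) and mua-6 (1.27 ± 0.53). One of the 5 was crt-1 (0.50 ± 0.22), a calreticulin chaperone gene that is no structural part of these organelles. In the dystrophin complex 2 of 9 were higher (22.2%) and 1 lower (median -0.36), near the shares of all features. These were the sarcoglycan genes sgcb-1 (0.91 ± 0.42) and sgca-1 (0.59 ± 0.27) against the syntrophin gene stn-1 (-0.47 ± 0.13).

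Of 20 genes of muscle excitation and calcium, 2 were higher and 3 lower (median -0.14), near the 17% and 20.9% of all features. The higher ones were itr-1, the inositol trisphosphate receptor gene that is also active in gut and gonad sheath (2.12, 1.76, 2.05 and 1.83; mean 1.94 ± 0.17), and the calsequestrin gene csq-1 (0.61 ± 0.18). The potassium channel gene shk-1 (-0.59 ± 0.19) and the calcium channel subunit gene unc-36 (-0.56 ± 0.22) were the lowest of those called lower. Of 8 transcription factor genes known from muscle of several kinds, among them hlh-8 and mls-1 of the non-striated muscles, 0 were higher and 2 lower, pal-1 (-1.99 ± 0.47) and ceh-22 (-0.57 ± 0.16), with a median of -0.21 and 0 higher at an unadjusted p under 0.05 in limma. For 8 genes, such counts do not stand apart from 17% higher and 20.9% lower among all features.

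Non-muscle actomyosin went both ways, with 6 of 20 genes higher (30%, beside 17% of all features) and 6 lower (beside 20.9%), and a median of -0.13. The intestinal actin gene act-5 (2.52 ± 0.38, 5.72-fold) and the non-muscle myosin gene nmy-1 (1.80 ± 0.37) were highest, and the anillin gene ani-2 (-2.39 ± 0.57) and the septin gene unc-61 (-1.98 ± 0.28) lowest. The second non-muscle myosin gene nmy-2, known for its part in the cleaving embryo and the germline, was lower (-0.99 ± 0.27), and the myosin light chain genes mlc-4 (1.26 ± 0.47) and mlc-5 (-0.66 ± 0.07) passed in opposite directions. These 3 were named after their values were seen.

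Markers of other tissues on the same arrays gave these values, to be read beside 17% of all features higher and 20.9% lower. Of 14 germline markers 0 were higher and 14 lower (median -3.20, array medians from -3.83 to -2.89), and of 13 intestine markers 12 were higher and 0 lower (median 2.44). Neuron markers had 0 higher and 10 lower of 14 (median -0.68), epidermis markers 4 higher and 4 lower of 10 (median -0.18), and pharynx markers 1 higher and 3 lower of 12 (median 0.05), the last near the shares of all features. The lists overlap: act-5 is also an intestine marker, and ceh-22, tnc-2 and tni-4 are also pharynx markers. Where a list of other tissues or of basement membrane and fibrous organelles had 0 in a direction, the count at an unadjusted p under 0.05 in limma was also 0, except for 1 higher neuron marker. The arrays come near-centred, so each ratio is relative to all other transcripts on its array, and the part of the lower germline share in the higher muscle ratios was not tested.

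**Figure D5:**
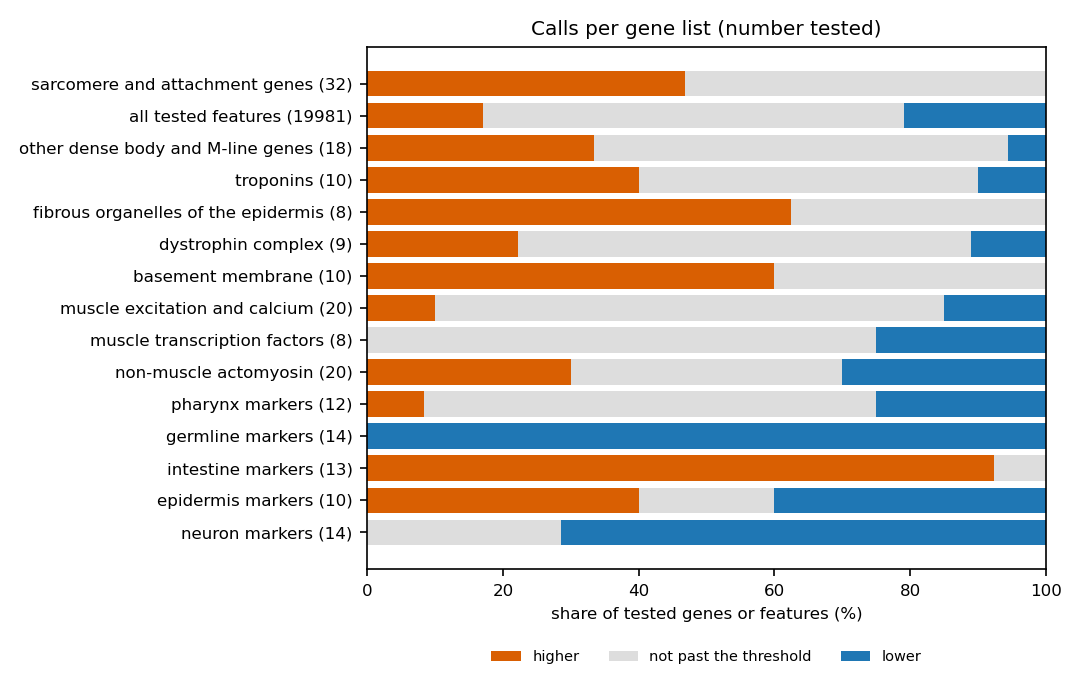
Share of tested genes or features (x axis, %) called higher, not past the threshold or lower in limma, for the 32 sarcomere and attachment genes, all features and 13 further lists, with the number tested in brackets. The 32 genes show 46.9% higher and 0 lower. The lists of muscle excitation and of muscle transcription factors have 10% and 0% higher, beside 17% of all features.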

How the data were processed

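Each array came as deposited log2 values for 21632 spots, which the labels and the numbers show to be channel ratios: every value below -2 is the log2 of a whole multiple of 0.001, within a tolerance of 0.001 of 1 such multiple. How the authors scanned, corrected, normalized and filtered the spots, and with which dyes, is not given in the sources consulted. Signal over background is unknown, and with 4 arrays the precision is limited. Array medians lay between -0.07 and 0.08, the values were not centred further, and missing spots numbered 118 to 547 per array. Pairs of arrays correlated between 0.739 and 0.806 across features, which are not independent.

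The 4 arrays formed 1 group, named from the channel 2 label. The array annotation gave 1 gene for 16450 spots (76.0%), several for 247 and none listed for 4935. By gene number 16360 of the former were found in RefSeq (table of WBcel235), with 0 symbols changed. Probes of 1 gene were averaged per array, leaving 20140 features. Features with values on at least 3 arrays (19981) were tested with limma 3.58.1 (R 4.3.3; intercept-only lmFit and eBayes, mean against 0, two-sided, Benjamini-Hochberg over all features, threshold 0.05); the pipeline was tested on simulated data. Because the reference RNA is the only control, the ratio against 0 is the test. No sequence tables were used here. Members, lists and tests were chosen with earlier results of these data known. All measured members are named by role; of each further list, up to 2 highest and 2 lowest called genes. Plots used Python 3.11.15 and matplotlib 3.10.9. Alternatives were other centring and scaling, missing-value filters, 1 probe per gene, robust eBayes, array weights, blocks from array titles and leaving out each prep.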

Additional observations from a re-analysis of the deposited data

Results flagged for a closer look

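Of 33 quantities checked for an array far from the other 3 (the 32 genes and the heavy chain difference), 4 stood out. The cutoff would mark about 1 in 20 independent quantities with equal spread on all arrays. These quantities share arrays, and prep 2 had the widest spread, so that rate is no yardstick here. On prep 2, unc-89 had 1.86, ttn-1 had 2.58 and egl-19 had 0.69, each far above the other 3 arrays. On prep 1, unc-97 had -0.63, below 3 values that lay close together.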

How the results depend on the processing

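The median of the genes stayed between 0.28 and 0.74 over 14 alternatives, and the heavy chain difference between -1.19 and -0.98. The number of higher genes ran from 8 to 14 when 1 prep was left out, with 9 without prep 2 and 8 without prep 3. Calls also fell over all features in these settings, to between 2091 and 2793 higher, against 3403 with every prep. Centring each array on the chemoreceptor and F-box genes lowered all ratios by 0.30 on average and left 7 genes higher and 1 lower (unc-98, -0.68, adjusted p = 0.0287 in limma), beside 1684 higher features of all in place of 3403. It also put unc-54, unc-15, act-1, act-2, act-3, unc-96, unc-112 and pat-12 short of the threshold, and turned the signs of myo-1 (-0.20), unc-97 (-0.11), pat-4 (-0.014), egl-19 (-0.081) and hlh-1 (-0.29), none of which was called. Without prep 4, higher features numbered 2091. Leaving out 1 prep turned the sign of 6 genes without a call, myo-1 and hlh-1 again among them: the range was -0.18 to 0.15 for pat-3, -0.045 to 0.067 for hlh-1, -0.20 to 0.28 for myo-1, -0.19 to 0.79 for ttn-1, -0.28 to 0.27 for myo-2 and -0.24 to 0.019 for sca-1. Other single calls lost were unc-112 under array medians (0.0544), equal MAD (0.0617), quantiles (0.0741) and 1 probe per gene (0.0524), act-2 under quantiles (0.0585) and 1 probe per gene (0.174), and unc-54 under robust eBayes (0.0522) and array weights (0.0664), given as adjusted p in limma. The cause was not tested.

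A title prefix or title date alone as a random block was not run, since 3 blocks for 4 arrays gave no correlation estimate. Taking the prefix shared by preps 1 and 2 and the date shared by preps 3 and 4 as 2 blocks, chosen after seeing the data, left 15 higher and 0 lower. Of all features 3649 were then higher and 4339 lower, against 3403 and 4174 without blocks. The estimated correlation within blocks was -0.058. A negative value narrows the standard errors, so this setting could hardly lose a call. No paired analysis was possible because there was 1 group.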
